A study of Mus musculus with 64 samples.

Results

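The Hox cluster genes were the 38 genes whose symbols in the count table are Hoxa, Hoxb, Hoxc or Hoxd followed by a number, out of 39017 genes in all. The rule uses their names and no measured value, and gave 11 genes of the HoxA cluster, 10 of HoxB, 9 of HoxC and 8 of HoxD. The libraries were bulk polyA RNA-seq of mouse pancreatic tumor cells on a background labeled C57BL/6 mixed. The tumors were of KPC mice, which carry a mutant Trp53 allele among others together with Pdx1-Cre, so that recombination takes place in the pancreatic lineage. The line KPC1 and the 7 clones named below were each grown alone (monoculture) or together with fibroblasts for 48 h and then sorted for tumor-specific GFP (coculture), with 4 replicates of each, 64 libraries in all. The study places clones E, H and V in its group 1 and clones K, M, N and T in its group 2, and all 7 clones came from 1 tumor, each line being 1 clone of it. The labels do not say whether the monocultures also passed through the sorter, nor whether replicates were separate cultures. P-values of tests on libraries thus measure the spread between these libraries, which may be technical. Those of tests on sums per line or clone measure the spread between lines or clones.

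Hox genes encode homeodomain transcription factors that give cells their position along the head-to-tail axis. They lie in 4 clusters, in which the order of the genes along the chromosome follows the order of their expression along the body: paralogs with low numbers act toward the head and those with high numbers toward the tail. Polycomb proteins hold the clusters silent where they are not used, trithorax proteins keep them active, retinoic acid switches on the low-numbered genes, and Pbx, Meis and Pknox proteins bind DNA together with Hox proteins. Adult fibroblasts are known to keep the Hox pattern of the body site from which they came, whereas the pancreatic epithelium arises under other homeobox genes, among them Pdx1.

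In the mm10 annotation (GRCm38), the HoxA genes of the table lie on chromosome 6, and the HoxB genes span 96194316 to 96368256 on chromosome 11, the HoxC genes 102921103 to 103036852 on chromosome 15 and the HoxD genes 74668310 to 74765142 on chromosome 2. Hoxb4, Hoxb5, Hoxb7, Hoxb8 and Hoxb9 rose in coculture in every line, and of these only Hoxb8 and Hoxb4 had a RefSeq promoter here. The upstream sequences of Hoxb8 and Hoxb4 are therefore shown. Each is the 250 bases before the RefSeq start on build GRCm38.p6, plus strand, 5′ to 3′, with CG dinucleotides in capitals. The first lies at chr11:96281655-96281904 and the second at chr11:96318017-96318266.
Hoxb8: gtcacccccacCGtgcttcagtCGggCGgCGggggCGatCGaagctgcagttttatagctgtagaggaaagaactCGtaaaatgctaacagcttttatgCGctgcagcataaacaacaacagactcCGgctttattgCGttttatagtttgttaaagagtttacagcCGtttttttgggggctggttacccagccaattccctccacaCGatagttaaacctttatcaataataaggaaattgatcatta
Hoxb4: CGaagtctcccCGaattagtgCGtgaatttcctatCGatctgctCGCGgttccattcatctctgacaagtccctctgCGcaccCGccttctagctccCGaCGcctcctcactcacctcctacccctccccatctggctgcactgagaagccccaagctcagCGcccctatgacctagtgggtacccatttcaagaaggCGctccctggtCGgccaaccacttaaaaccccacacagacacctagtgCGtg
These windows held 12 CG dinucleotides for Hoxb8 and 14 for Hoxb4, against a median of 6 over 32851 mouse promoters of the same length and of 13 over the 23 promoters of 21 Hox genes. The letters TATAAA, on either strand, stood in 3 of the 23, Hoxb8 among them, against 12.4% of all promoters. The letters TGATTNAT, read by Hox proteins together with Pbx, stood in 2 of the 23, those of Hoxa2 and Hoxd11, against 2.82% of all promoters. Hoxb9, which had the most counts of the 38 genes, lies just before Hoxb8, at 96271457 to 96276595.

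Library totals were 11178721 to 21333683 counts, with a median of 15648009.5, and each of the 64 libraries correlated best with another of its own line and culture. Levels are CPM, the count scaled to a common library size after TMM. Of the epithelial markers, Krt8, Krt18 and Krt19 lay above 100 CPM in every line and culture, whereas Epcam and Esrp1 stayed under 1 CPM throughout and Cdh1 ranged from 0.998 CPM in the lowest line to 303 CPM in the highest in monoculture. Krt19 had a higher mean in coculture in 0 of 8 lines, Krt8 in 2, and Krt18 and Cdh1 in 4. Of the 21 fibroblast markers, 15 had a higher mean in coculture in all 8 lines. Mfap4, Prrx1 and Tagln had one in 7 lines, Islr and Mfap5 in 4 and Twist2 in 1. The summed level of the 21 was 99.4 to 367 CPM over monoculture libraries and 322 to 2450 CPM over coculture libraries. Thy1 and Lum had no count in monoculture. Ptprc, a marker of all leukocytes, had 10 counts in monoculture and 18 in coculture, and the sum of the 7 leukocyte and endothelial markers in the table was 5.5 to 21.7 CPM and 9.62 to 58.5 CPM. Of these 7, only Cd68 had a higher mean in coculture in all 8 lines, with 5559 counts in monoculture and 13581 in coculture. Kdr had 600 and 637 counts, whereas Pecam1 had 470 and 224 and Csf1r 79 and 39. The part of fibroblast RNA in the Hox values below was not tested, and in bulk samples more cells of a type and more RNA per cell cannot be told apart.

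The 38 genes together had 969 counts in the 32 monoculture libraries and 7270 in the 32 coculture libraries, and the make-up of these counts differed by cluster. HoxA held 81.7% of the monoculture counts and 23.4% of the coculture counts, whereas HoxB held 11.4% and 76.0%. HoxC gave 28 and 27 counts and HoxD 39 and 18. For 10 genes all 64 libraries were at 0, and 18 of the 38 had fewer than 10 counts over all 64 libraries. The summed level of all Hox genes was 0.141 to 8.90 CPM over line means in monoculture and 9.97 to 19.4 CPM in coculture, so even the highest sums were small beside the total.

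**Figure D1:**
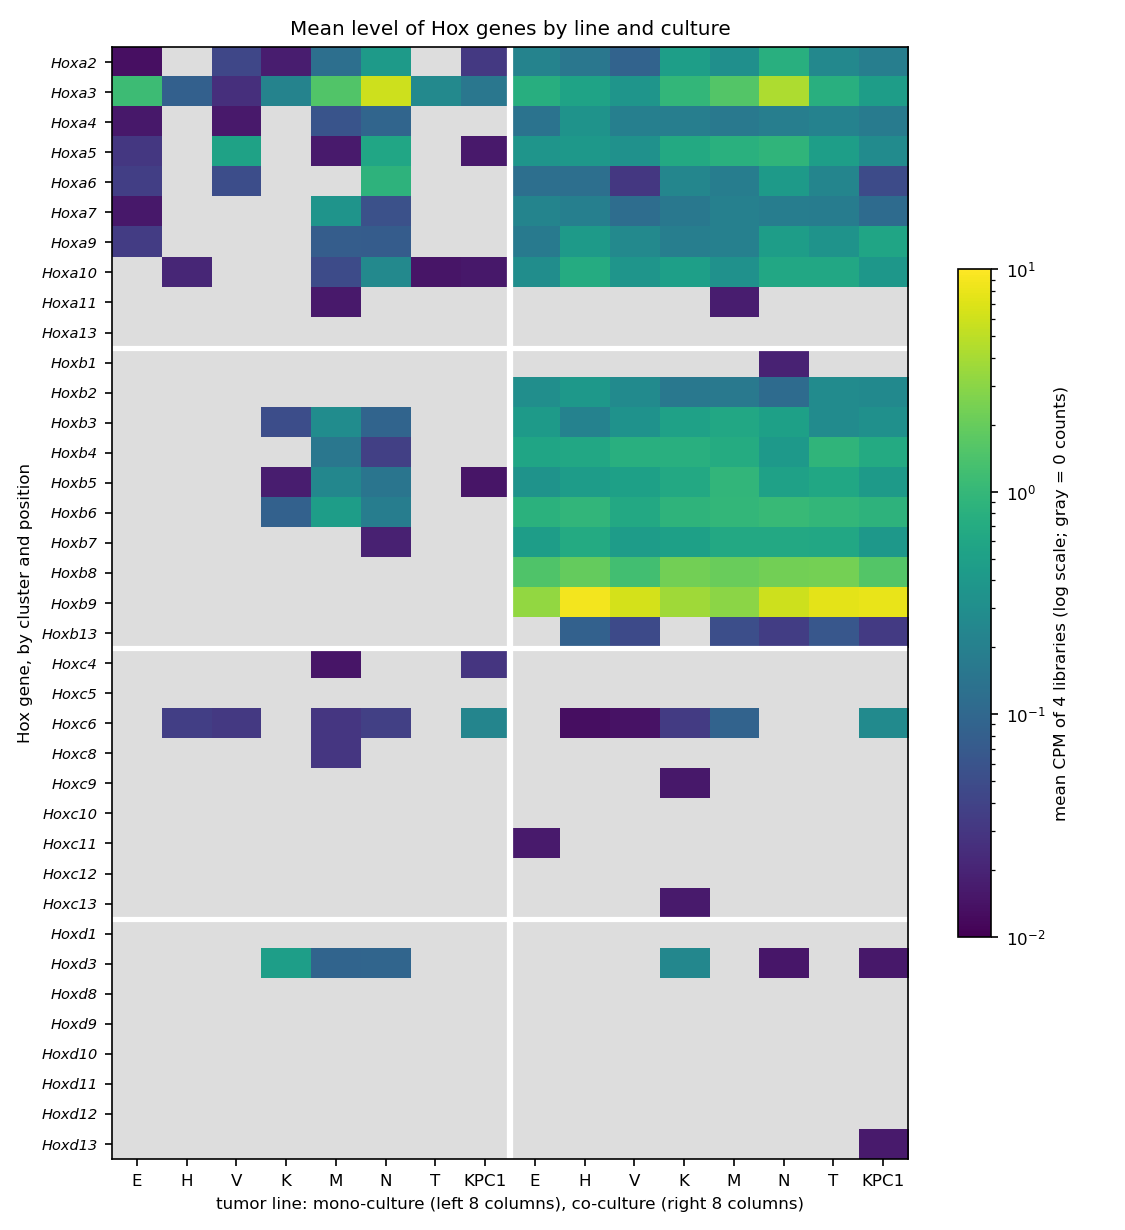
Mean CPM of 4 libraries on a log color scale for the Hox genes, in rows by cluster and position, with the 8 lines in monoculture on the left and in coculture on the right; gray marks no count. Hoxb2 to Hoxb9 are filled in all 8 coculture columns, whereas Hoxb9, Hoxb8 and Hoxb2 are gray in all 8 monoculture columns and HoxC and HoxD are mostly gray in both.

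Hoxb9, a gene of the trunk part of the cluster, had the most coculture counts of all Hox genes, 2920 of the 7270. It had no count in any of the 32 monoculture libraries and at least 18 in each of the 32 coculture libraries. In clone E the 4 coculture libraries had 2.24, 1.92, 3.63 and 5.08 CPM. In clone H they had 4.41, 8.41, 11.44 and 11.18 CPM, and in clone V 2.47, 4.86, 8.13 and 10.25 CPM. Within these lines the highest library thus stood well above the lowest. In clone K the values were 2.20, 1.25, 5.30 and 6.19 CPM. Clone M had 1.86, 1.48, 6.41 and 2.46 CPM and clone N 2.22, 6.99, 4.80 and 9.48 CPM. The lowest library of the series was in clone K, and clones E, K and M had the 3 lowest means. Clone T had 8.40, 7.31, 6.40 and 8.28 CPM, with little spread. KPC1 had 11.58, 6.41, 6.87 and 7.15 CPM, with 1 library far above its other 3. Means ran from 3.05 CPM in clone M to 8.86 CPM in clone H, 2.9 times as high.

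Hoxb8, its neighbor toward the head end, also had no count in monoculture. In coculture its line means ran from 1.22 CPM in clone V to 2.35 CPM in clone T and single libraries from 0.267 to 4.46 CPM. Clone K had 0.47, 0.84, 3.47 and 4.33 CPM, and clone M 1.03, 1.01, 4.46 and 1.79 CPM. Clone T had 2.74, 1.57, 2.34 and 2.76 CPM, whereas clone V had 0.27, 0.95, 1.75 and 1.93 CPM. The lines overlapped over most of this range. Against the 3 counts that a total of 0 over a line's 4 monoculture libraries allows, Hoxb9 was at least 65.8-fold higher in coculture in clone M and at least 188-fold higher in clone H, the ends of the range. For Hoxb8 these bounds were at least 27.7-fold higher in clone V and at least 53.3-fold higher in clone T. They cover counting error in the monoculture total only: the coculture count was taken as observed, and the spread between libraries is left out.

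Hoxb7 had 1 count in monoculture, in clone N, and 22 to 48 counts per line in coculture, with line means of 0.399 to 0.684 CPM. Hoxb2, which patterns the hindbrain, had none in monoculture and 7 to 29 counts per line in coculture, too few for the filter on low counts. Hoxb13, the most tailward HoxB gene, had none in monoculture and 20 in coculture spread over 6 lines. Hoxb1, at the other end, had 1 count in all 64 libraries. The coculture counts thus ran from Hoxb2 to Hoxb9 and nearly stopped at both ends of the cluster.

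Besides the 1 count of Hoxb7, Hoxb3, Hoxb4, Hoxb5 and Hoxb6 were the HoxB genes with counts in some monocultures, nearly all from clones K, M and N, with 1 further count of Hoxb5 in KPC1. In clone M these genes had 18, 10, 16 and 30 counts in monoculture, in that order, and in coculture 34, 38, 52 and 53. For Hoxb6, clone M had 0.29, 0.51, 0.39 and 0.67 CPM in monoculture and 0.55, 0.78, 1.30 and 1.27 CPM in coculture, so both cultures overlapped. Clone K had 0.06, 0, 0.07 and 0.21 CPM in monoculture and 0.07, 0.42, 1.31 and 1.79 CPM in coculture, which also overlapped. In clones E, H, V and T and in KPC1, Hoxb6 had no count in monoculture and line means of 0.64 to 0.973 CPM in coculture. Hoxb5 and Hoxb6 overlap the antisense gene Hoxb5os, and Hoxb3 and Hoxb2 overlap Hoxb3os. The strand setting of the counting is not given in the sources used here, so for these genes sense and antisense reads cannot be told apart.

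**Figure D2:**
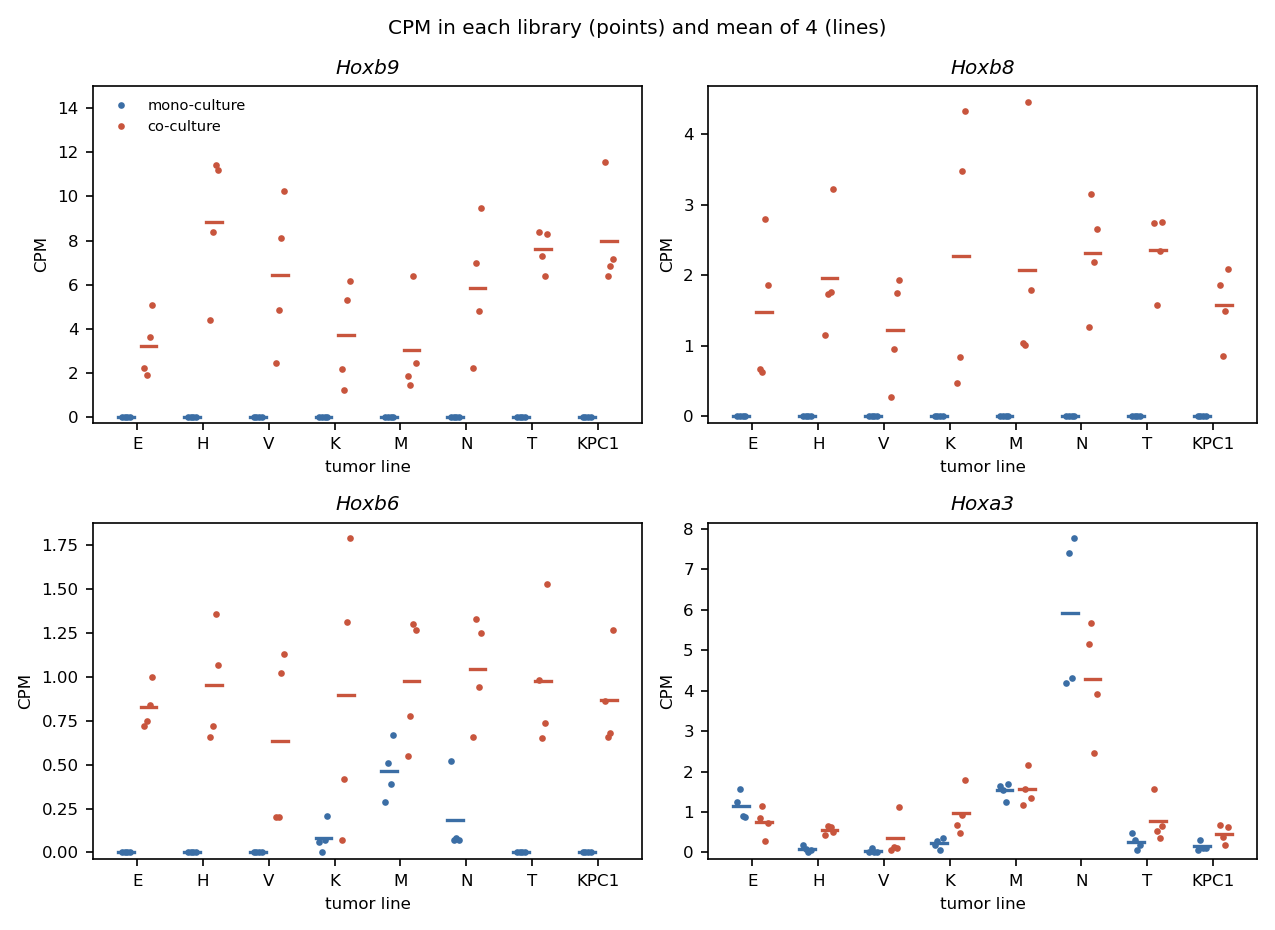
CPM of Hoxb9, Hoxb8, Hoxb6 and Hoxa3 in each of the 64 libraries (points; blue, monoculture; red, coculture), with the mean of 4 libraries as a line, for each tumor line. Hoxb9 and Hoxb8 lie at 0 in all monoculture libraries, whereas Hoxa3 is highest in clone N in both cultures.

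Per length, on the RPKM values of the authors, the HoxB profile in coculture was highest at Hoxb9, toward the tail end. The median over 8 line means was 0.284 RPKM for Hoxb2, 0.278 for Hoxb3, 0.223 for Hoxb4, 0.182 for Hoxb5, 0.432 for Hoxb6, 0.349 for Hoxb7, 0.746 for Hoxb8 and 2.27 for Hoxb9, and fell to 0.018 for Hoxb13. The RPKM and count tables differ for some genes: Hoxb2 had an RPKM above 0 in 4 libraries with no count, and in clone N 0.261 RPKM at 0.113 CPM beside 0.363 RPKM at 0.394 CPM in clone H, so its RPKM level is uncertain. Hoxa6 was at 0 RPKM in 10 libraries that had a count. Line means of Hoxb9 were 1.2 to 3.24 RPKM and those of Hoxb8 0.422 to 0.832 RPKM, ranges that did not overlap. The HoxA profile in coculture had no peak as high as that of Hoxb9. Medians were 0.214 RPKM for Hoxa5, 0.141 for Hoxa3, 0.126 for Hoxa10 and 0.122 for Hoxa2, and the line ranges of these 4 overlapped. They were 0.109 RPKM for Hoxa4, 0.0833 for Hoxa6, 0.0663 for Hoxa7 and 0.0498 for Hoxa9. The line ranges of Hoxa7 (0.0518 to 0.0853) and Hoxa9 (0.0314 to 0.0956) lay below that of Hoxa5 (0.143 to 0.475). Hoxa13 had no count in any library and Hoxa11 had 2.

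**Figure D3:**
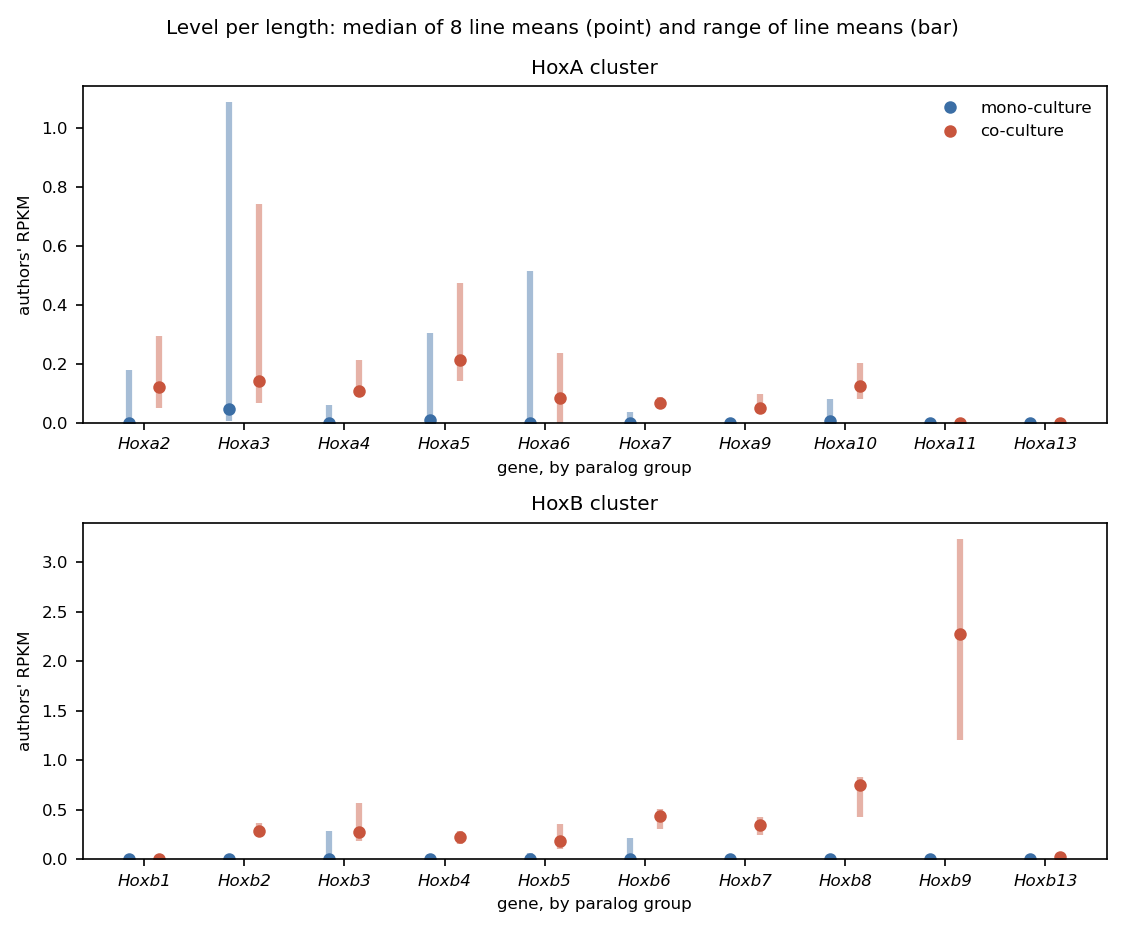
The authors' RPKM for HoxA genes (top) and HoxB genes (bottom) in order of paralog number: the point is the median of 8 line means and the bar the range of line means, in monoculture (blue) and coculture (red). In HoxB the coculture values peak at Hoxb9 with a median of 2.27 RPKM, and in HoxA the widest monoculture range is that of Hoxa3.

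Monocultures differed in which Hox genes they carried. With at least 10 counts over a line's 4 libraries, 20 of 304 gene and line pairs (6.58%) were detected, against 36.9% over all genes of the table. Clones M and N had 6 each. In clone N these were Hoxa2, Hoxa3, Hoxa5, Hoxa6, Hoxa10 and Hoxb6, and in clone M Hoxa3, Hoxa7, Hoxb3, Hoxb4, Hoxb5 and Hoxb6, so 2 genes were shared. Clone V had Hoxa5 among its genes, clone K Hoxa3 and Hoxd3, KPC1 Hoxa3 and Hoxc6, and clones E and T Hoxa3 alone. Clone H had none, with 8 Hox counts in all.

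Hoxa3, which patterns the pharyngeal arches and the organs they form, had the most counts of the Hox genes in monoculture, 544 of the 969. In clone N the 4 monoculture libraries had 4.2, 7.41, 4.32 and 7.77 CPM and the 4 coculture libraries 5.16, 5.67, 2.45 and 3.92 CPM. In clone M they had 1.65, 1.54, 1.25 and 1.70 CPM and 1.17, 1.56, 2.16 and 1.34 CPM, and in clone E 1.25, 1.56, 0.91 and 0.87 CPM and 0.86, 1.16, 0.28 and 0.72 CPM. In these 3 lines the cultures overlapped. In clone H the monoculture libraries had 0.19, 0.08, 0 and 0.06 CPM and the coculture libraries 0.42, 0.66, 0.62 and 0.51 CPM, with no overlap. Clone K had 0.19, 0.28, 0.07 and 0.35 CPM against 0.67, 0.49, 0.92 and 1.79 CPM, again with no overlap. The monoculture order was led by clone N at 5.92 CPM, and no monoculture library of another line reached its lowest value. Hoxa3 spans Hoxa4, Hoxa5 and Hoxa6 on the same strand in the annotation, so that reads could be split among these genes. Gm28308, on that strand too, overlaps Hoxa2, Hoxa3, Hoxa4, Hoxa5 and Hoxa6. The antisense gene Hoxaas3 overlaps Hoxa3, Hoxa4, Hoxa5, Hoxa6 and Hoxa7. As the strand setting is not given, sense and antisense reads cannot be told apart for these genes either.

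Hoxa5, a regulator of lung and axial development, was at 9, 10, 7 and 9 counts in the monocultures of clone V and 9, 7, 3 and 13 in those of clone N, and at 4 counts in all in the other 6 lines. In coculture it had 18 to 58 counts in every line. Hoxa6 was at 14, 9, 8 and 15 counts in the monocultures of clone N and 6 counts in all elsewhere. Hoxa10, a gene of the lumbar region and the uterus, had 20 counts over all monocultures, 14 of them in clone N, and 17 to 51 counts per line in coculture. Hoxa4 and Hoxa9 had 11 counts each in monoculture and Hoxa7 had 27, of which 23 were in clone M.

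HoxC and HoxD stayed close to 0 in both cultures. Hoxc6 in KPC1 had 15 counts in each culture, at 0.233 CPM in monoculture and 0.27 CPM in coculture, and 17 counts in all elsewhere. Hoxd3 in clone K had 28 counts in monoculture and 15 in coculture. The RPKM table lists Hoxd3 at 0 in all 17 libraries that had a count, and Hoxd3 overlaps Hoxd4 and Mir10b, so its counts are uncertain. Hoxd4, which is in the RPKM table only, was above 0 in 3 libraries of each culture, with line means of at most 0.0212 RPKM. Of the other 7 HoxD genes, 6 had no count and Hoxd13 had 1. Of the other 8 HoxC genes, 3 had no count and none had more than 3.

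Genes seen only in coculture were those with at most 3 counts over a line's monoculture libraries and at least 10 over its coculture libraries, a description with no test. Hoxb7, Hoxb8 and Hoxb9 met this in all 8 lines, 3 of 38 genes (7.89%) against 0.156% of all genes. Over gene and line pairs the share was 92 of 304 (30.3%), against 0.877% of all genes. Hoxa10 and Hoxb4 met it in 7 lines, and Hoxa5, Hoxa9, Hoxb2, Hoxb3 and Hoxb5 in 6. In all, 16 Hox genes met it in at least 1 line, 13 were detected in the monoculture of at least 1 line, and 19 did neither in any line. Clone T had 15 such genes and clone N 5, the ends of the range. Every coculture library lay above every monoculture library of its line, in all 8 lines, for Hoxb4, Hoxb5, Hoxb7, Hoxb8 and Hoxb9, 5 of 38 genes (13.2%), against 0.359% of all genes.

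The response to coculture was tested in each line with edgeR's quasi-likelihood test on counts, with Benjamini-Hochberg adjustment over 14134 genes and a threshold of 0.1. Of the 38 genes, 12 passed the filter on low counts. Of the 96 gene and line pairs, 80 rose, none fell, and 16 did not pass, and a gene that passes the filter only through its coculture counts had to differ, so these counts are a description. At an unadjusted p under 0.05, 0 pairs were lower, and DESeq2 called 0 lower. All 12 tested genes rose in clone H, in clone K and in clone T, against 21.4%, 12.5% and 31.5% of all genes tested. In clone E and in KPC1 10 rose, against 32.1% and 20.1%. In clone V 9 rose, in clone M 8 and in clone N 7, against 30%, 21.6% and 20%. Over all genes tested, 29.2%, 22.6%, 31.5%, 8.02%, 17.3%, 17.4%, 30.7% and 19% fell, in the order clone E, clone H, clone V, clone K, clone M, clone N, clone T and KPC1.

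Hoxb4, Hoxb5, Hoxb7, Hoxb8 and Hoxb9 rose in all 8 lines, and Hoxb3, Hoxb6 and Hoxa10 in 7. Hoxb4 lost its call in clones M and N without replicate 2 and without replicate 3, and in clone N with limma on log2(RPKM + 1). Hoxb5 lost it in clones M and N without replicate 3, and Hoxa10 in clone M without replicate 3 and, with limma on log2(RPKM + 1), in clones E and M and in KPC1. The pairs that did not pass were Hoxa2, Hoxa3, Hoxb3 and Hoxb6 in clone M, Hoxa2, Hoxa3, Hoxa5, Hoxa6 and Hoxa10 in clone N, Hoxa3 and Hoxa6 in clone E, Hoxa2, Hoxa5 and Hoxa6 in clone V, and Hoxa2 and Hoxa6 in KPC1. Hoxa6 in KPC1 had no monoculture count, and the other pairs had 2 to 318. For Hoxb6 in clone M the difference was 1.04 (log2, SE 0.55, adjusted p = 0.15). A further fit took each line and replicate number as a block. With it, edgeR called Hoxb6 in clone M (1.03, adjusted p = 0.0976) and Hoxb3 in clone M (1.16, adjusted p = 0.0935). The same fit called Hoxa10 in clone N (1.22, adjusted p = 0.0397) and Hoxa2 in KPC1 (2.37, adjusted p = 0.0622). All 4 replicate numbers correlated over 0.1 in clones M and N, and not in KPC1. Without a block, the difference for Hoxa5 was -0.64 (log2, SE 0.64, adjusted p = 0.41) in clone V and 0.62 (SE 0.57, adjusted p = 0.439) in clone N.

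For Hoxa3 the log2 difference was 2.67 (SE 0.75, adjusted p = 0.00387) in clone H, 2.11 (SE 0.59, adjusted p = 0.00834) in clone K and 3.35 (SE 0.93, adjusted p = 0.00201) in clone V. It was 1.54 (SE 0.57, adjusted p = 0.019) in clone T and 1.57 (SE 0.69, adjusted p = 0.0735) in KPC1. In clones E, M and N it was -0.59, 0.02 and -0.47 (SE 0.47, 0.43 and 0.37, adjusted p = 0.297, 0.982 and 0.36). The rise in clone V rested on replicate 4, at 1.13 CPM beside 0.07, 0.14 and 0.12 CPM, and without replicate 4 it was 1.29 (adjusted p = 0.397). The rise in clone T was 1.35 (adjusted p = 0.119) without replicate 1, and that in KPC1 1.11 (adjusted p = 0.307) without replicate 1 and 1.27 (adjusted p = 0.228) without replicate 4. With limma on log2(RPKM + 1), Hoxa3 passed in none of these 5 lines, clones H and K included. That setting called Hoxa3 in clone N, where its mean was 5.92 CPM in monoculture and 4.3 CPM in coculture. With limma on log2(RPKM + 0.1) Hoxa3 did not pass in clone V or KPC1, and with no filter it did not pass in KPC1.

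**Figure D4:**
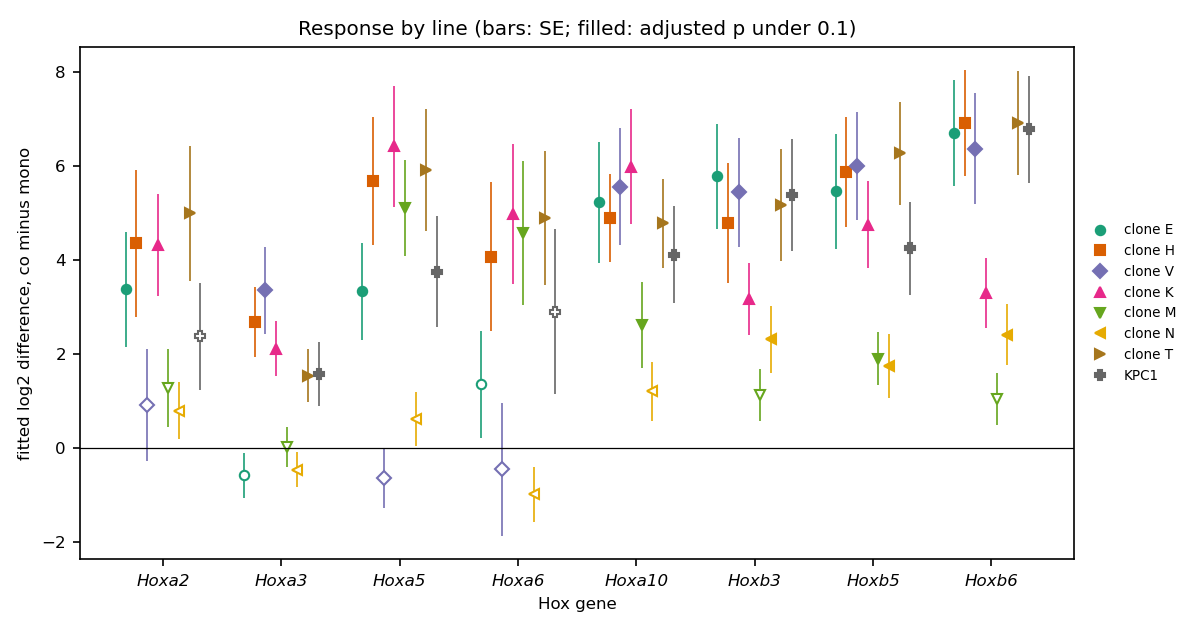
Fitted log2 difference of coculture minus monoculture in each of the 8 lines (symbols, with bars of 1 SE) for the 8 Hox genes tested that had at least 20 monoculture counts; filled symbols passed an adjusted p of 0.1. Where a line had no monoculture count the fitted value depends on the prior count and is not a bound; the values of clones M and N lie lowest for Hoxb3, Hoxb5 and Hoxb6.

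Over lines, with the 4 libraries of each line and culture summed and the line as a covariate, 11 of the 38 genes passed the filter and all 11 were called higher. Over all 14478 genes tested 27.2% rose and 27.4% fell. Most of the 11 passed the filter through their coculture counts, with monoculture totals of 0 for Hoxb8 and Hoxb9, 1 for Hoxb7, 11 for Hoxa9 and 12 for Hoxb4, so their direction was fixed by the filter and the count is a description. Hoxa10 rose by 3.87 (log2, SE 0.60, adjusted p = 0.00179), Hoxb6 by 4.03 (SE 0.76, adjusted p = 0.00333) and Hoxb5 by 3.84 (SE 0.63, adjusted p = 0.00212). Hoxb3 rose by 3.44 (SE 0.63, adjusted p = 0.003) and Hoxa5 by 2.83 (SE 0.83, adjusted p = 0.0197). Hoxa10, Hoxb6, Hoxb5, Hoxb3 and Hoxa5 had at least 10 counts in all 8 cocultures, but in only 1 or 2 monocultures. They too passed the filter through coculture, so their p-values are a description and no support for the rise. Hoxa3 had at least 10 counts in 6 monocultures. Hoxa3 rose by 1.03 (SE 0.46, adjusted p = 0.0929). The rise of Hoxa3 did not pass under 12 of 18 alternatives, among them no filter, limma on RPKM, each one that left out a replicate and each that left out clone H, V, K or T or KPC1, with values of 0.03 to 1.33 and adjusted p from 0.0217 to 0.622.

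Between lines, 9 of the 12 tested genes differed in monoculture, and 95.1% of all genes tested did. Hoxa3 (adjusted p = 1.39e-18), Hoxa6 (adjusted p = 1.74e-08) and Hoxa5 (adjusted p = 3.76e-08) had the smallest p-values. Hoxb7, Hoxb8 and Hoxb9, with 1 count or none, could not differ, so the 2 shares cannot be compared. In coculture 5 of the 12 differed, and 94.3% of all genes tested did. These were Hoxa3 (adjusted p = 2.34e-10), Hoxa2 (adjusted p = 0.00642), Hoxb9 (adjusted p = 0.012), Hoxa6 (adjusted p = 0.0212) and Hoxa5 (adjusted p = 0.0885). Hoxb6 ranged over lines by 1.63 times (adjusted p = 0.953) and Hoxb8 by 1.92 times (adjusted p = 0.687), and neither passed. Low counts limit this test: the median coculture library was at 0.382 CPM for Hoxb3, 0.517 CPM for Hoxb7 and 0.851 CPM for Hoxb6. A gene that did not pass is thus not shown to be alike over lines, and the coculture shares cannot be compared either. Hoxb9 lost its call without replicate 2, Hoxa5 under DESeq2, with no filter and without replicate 1, 2 or 3, Hoxa6 under DESeq2 and without replicate 1 or 3, and Hoxa2 without replicate 4.

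The difference in response itself was tested as the interaction of line and culture, and passed for 9 of the 12 genes, against 71.3% of all genes tested. Hoxa5 (adjusted p = 1.92e-05), Hoxa3 (adjusted p = 0.000113) and Hoxb6 (adjusted p = 0.000131) led. With limma on RPKM at both offsets Hoxa3, Hoxa5 and Hoxa6 passed, whereas Hoxb6, Hoxa10, Hoxa2, Hoxb3, Hoxb4 and Hoxb5 did not. Hoxa2 also did not pass without replicate 1, 2 or 3, Hoxb4 without replicate 2 or 4, and Hoxa10 without replicate 3. For Hoxb6 the monoculture level was the part that varied, from 0 in 5 lines to 0.467 CPM in clone M, while the coculture means lay at 0.64 to 1.05 CPM. Hoxb7, Hoxb8 and Hoxb9 did not pass, and with 1 count or none in monoculture the test has little to compare.

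The clones of group 1 and group 2 were compared in monoculture on sums per clone. Hoxa3 was the only Hox gene that passed the filter, with a log2 difference of group 1 minus group 2 of -2.25 (SE 1.59, adjusted p = 0.888). No Hox gene was called, and over all 14829 genes tested edgeR called 0 as higher and 0 as lower (0% each), with 347 and 419 at an unadjusted p under 0.05. DESeq2 called 0 Hox genes.

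Beside the coculture levels of Hoxb9 stood those of Thy1, a surface protein of fibroblasts with no count in monoculture. Thy1 means in coculture ran from 5.98 CPM in clone K to 16.1 CPM in clone T. In 6 of 8 lines the coculture library with the most Hoxb9 was also the one with the most Thy1, and in 6 of 8 the one with the least Hoxb9 had the least Thy1. In clone K, Thy1 was 2.80, 1.11, 10.2 and 9.78 CPM where Hoxb9 was 2.20, 1.25, 5.30 and 6.19 CPM. On counts summed per line, there were 38.5 counts of Hoxb9 for every 100 of Thy1 in clone N and 62.4 in clone K, the ends of a 1.62-fold range. For Hoxb8 the same ratio ran from 10.1 in KPC1 to 38.2 in clone K, a 3.78-fold range, and its highest library coincided with that of Thy1 in 3 of 8 lines and its lowest in 4. Against the sum of fibroblast markers the genes did not differ in this way: Hoxb8 coincided in 5 lines at the highest and 6 at the lowest library, and Hoxb9 in 6 and 4. Postn, another fibroblast marker, was highest in clone K, at 73.5 CPM, where Thy1 was lowest. The sum of all HoxB genes was lowest in the library with the lowest sum of fibroblast markers in 7 of 8 lines and highest in that with the highest in 6 of 8. These values were given by the same libraries, and the part of fibroblast RNA in them was not tested.

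**Figure D5:**
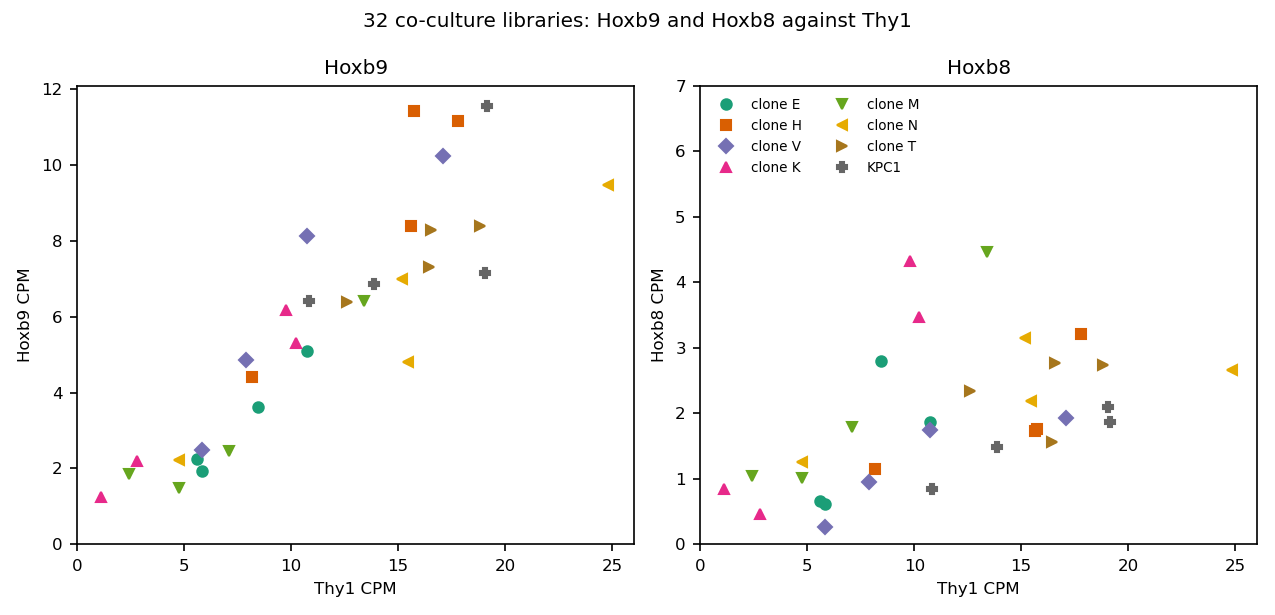
CPM of Hoxb9 (left) and Hoxb8 (right) against CPM of Thy1 in the 32 coculture libraries, with 1 symbol for each tumor line. On counts summed per line, Hoxb9 per 100 counts of Thy1 runs from 38.5 to 62.4 and Hoxb8 from 10.1 to 38.2. Single libraries range more widely for Hoxb9, from 1.25 CPM at 1.11 CPM of Thy1 in clone K to 4.8 CPM at 15.5 CPM in clone N.

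Hoxb9 made up 59.6% of the Hoxb9 and Hoxb8 counts in the coculture of clone M (95% interval 53.6 to 65.4, Clopper-Pearson) and 62% in clone K (56.9 to 67.0), against 84.0% in clone V (80.5 to 87.1) and 83.2% in KPC1 (79.9 to 86.2). Single libraries ran from 57.9 to 64.3% in clone M and from 82.3 to 90.2% in clone V, and in clone K from 58.8 to 82.5%. The intervals cover counting error only, and the difference between lines was not tested.

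Genes that act with or on the clusters were described by the same fit over lines. Beside each count stand the shares of all genes in that fit, 27.2% higher and 27.4% lower. Of 9 Hox cofactors, 2 rose, 3 fell and 4 did not pass, close to those shares. Pknox2 had no count in monoculture and 778 in coculture, at 1.18 to 1.92 CPM over line means, and Pbx3 rose by 0.24 (log2, SE 0.08). Among those that fell, Pknox1 fell by 0.33 (log2, SE 0.11) and Meis2 by 0.36 (SE 0.13). Of 20 Polycomb genes, 4 rose and 7 fell, near the same 27.2% and 27.4%, with a median log2 difference of -0.04. Phf19, an accessory subunit of the complex that methylates H3K27, rose by 0.83 (log2, SE 0.25), the largest rise of the list. Eed, a core subunit of that complex, rose by 0.39, its partner Jarid2 fell by 0.47, and Cbx8, a reader of that mark, fell by 0.68. Of 11 trithorax genes and H3K27 demethylases, 3 rose and 6 fell, against 27.2% and 27.4% of all genes, with Wdr5 up by 0.56, Ash2l down by 0.92 and Kmt2a down by 0.53.

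Of 13 retinoic acid pathway genes tested, 3 rose and 6 fell, against 27.2% and 27.4% of all genes, and 4 rose and 5 fell under DESeq2. Crabp1, a carrier of retinoic acid in the cytosol, had 7 counts in monoculture and 1227 in coculture, and Crabp2 rose by 1.30 (log2, SE 0.14). Stra6, the receptor that takes up retinol, fell by 2.88 (log2, SE 0.40) and Rxra by 0.68. Rarb, a receptor that retinoic acid itself induces, rose by 0.93 (log2, SE 0.25), at no more than 0.953 CPM in any line. Of the ParaHox and Cdx genes, which are relatives of the Hox clusters, 2 were tested and both fell, Cdx2 by 1.09 (log2, SE 0.22) and Pdx1, the factor that marks the pancreatic lineage, by 1.25 (log2, SE 0.26).

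Of the 16 protein-coding neighbors of the clusters tested, 3 rose, 7 fell and 6 did not pass, against 27.2% and 27.4% of all genes, with a median log2 difference of 0.01, and 3 rose and 5 fell with RLE normalization. Cbx1, beside HoxB, rose by 0.26 and Ttll6 fell by 1.76 (log2), and Evx1 and Evx2, which lie at the tail ends of HoxA and HoxD, had no count. Hoxb3os, the antisense gene over Hoxb3 and Hoxb2, rose by 3.52 (log2, SE 0.75, adjusted p = 0.00515), from 45 counts to 279, and Hotair, in HoxC, had none. Mir10a, Mir10b, Mir196a-2, Mir196b and Mir615 had no count in these polyA libraries.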

How the data were processed

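The labels name featureCounts, edgeR and mm10 for the processing by the authors, without versions; the aligner and annotation are not given in the sources used here. The deposited counts are whole reads per gene, unnormalized, and the deposited RPKM values are scaled by the authors to gene length and library size. Members and gene lists were chosen with earlier results of these data known. Counts were tested with edgeR 4.0.16 (R 4.3.3, quasi-likelihood, TMM, filterByExpr, Benjamini-Hochberg over all genes, adjusted p under 0.1), on 64 libraries or on sums per line and culture. Levels are CPM on TMM-scaled library sizes. RPKM served for levels between genes and for limma 3.58.1 on log2(RPKM + 1) and log2(RPKM + 0.1); DESeq2 1.42.0 was an alternative. Hox genes with a mean of at least 1 CPM in a line and culture were described by library, the others by range or count; of other lists, the leading genes by adjusted p. Annotation was GENCODE M21 (mm10); RefSeq gave promoters for 21 members, and none for Hoxb9. Every column matched a sample title, with 0 left over. On simulated counts of 14134 genes, 200 of them changed by 1 (log2), the test recovered 75.5% in clone E and 98.5% over lines, with 8.48% and 12.4% false calls. Each simulated gene had the same mean in all lines and, for the test over lines, the same change in each. The 98.5% thus leaves out spread between lines, and no rate was computed for genes at the low counts of Hox genes. Same-numbered monoculture and coculture libraries correlated at -0.0945 to 0.361, over 0.1 in 21 of 32 pairs; in clones M (0.118 to 0.203) and N (0.288 to 0.361) every pair was over 0.1, so the blocked values stand beside the results there, and in the other lines not every pair was, so the block stayed an alternative. Some items are not reported here.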

Additional observations from a re-analysis of the deposited data

Results flagged for a closer look

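Of 42 line and culture groups of 4 libraries tested for a library far from its other 3 (Dixon's test, 95% critical value) in Hoxa3, Hoxb6, Hoxb8 and Hoxb9, 3 held one, and chance gives about 1 in 20 groups. Hoxa3 in the coculture of clone V was at 1.13 CPM in 1 library and at 0.07, 0.12 and 0.14 CPM in the others. Hoxb6 in the monoculture of clone N was at 0.52 CPM in 1 library and at 0.07, 0.07 and 0.08 CPM in the others. Hoxb9 in the coculture of KPC1 was at 11.58 CPM in 1 library and at 6.41, 6.87 and 7.15 CPM in the others.

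The response to coculture differed between lines, by edgeR's test of the line and culture interaction, for 9 of the 12 genes tested. Over all genes tested 71.3% did, so the Hox genes were close to that share. The adjusted p was 1.92e-05 for Hoxa5, 0.000113 for Hoxa3, 0.000131 for Hoxb6, 0.000815 for Hoxa6, 0.00339 for Hoxb3, 0.0043 for Hoxb5, 0.0121 for Hoxa10, 0.0325 for Hoxb4 and 0.0543 for Hoxa2. With limma on RPKM at both offsets the difference passed for Hoxa5, Hoxa3 and Hoxa6 and not for the others.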

How the results depend on the processing

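No alternative turned the direction of a called result. Gene and line pairs that rose numbered 80, and 42 with a filter of 1 CPM, which left 6 genes to test; pairs that fell numbered 0, and 2 with no filter, 3 with limma on log2(RPKM + 1) and 2 on log2(RPKM + 0.1). Genes that rose over lines numbered 11, and 3 with the filter of 1 CPM, which tested 3. Genes that differed between lines in monoculture numbered 9, and 15 with no filter, 4 with the filter of 1 CPM and 5 with limma on log2(RPKM + 1). In coculture they numbered 5, and 3 under DESeq2, 3 with the filter of 1 CPM and 8 with limma on log2(RPKM + 0.1). Genes whose response differed numbered 9, and 4 with the filter of 1 CPM, 5 and 5 with limma at both offsets, of which 3 were among the 9. Leaving out each replicate gave 73 to 84 pairs that rose, 9 to 10 genes over lines, 8 to 9 and 3 to 4 genes between lines in monoculture and coculture, and 7 to 8 whose response differed. It gave 74 to 87 pairs seen only in coculture, and 14 to 17 detected in monoculture. The difference of Hoxa3 in clone M, not called, ran from -0.27 to 0.17 over these. Pairs seen only in coculture numbered 92, and 46 at a minimum of 30 counts; genes so seen in all 8 lines numbered 3, and 5 with up to 10 monoculture counts. Pairs detected in monoculture numbered 20, and 31 at 4 counts and 7 at 30 counts. The cause of these shifts was not tested, beyond the number of genes each filter leaves.

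With each line and replicate number as a block, 84 pairs rose and 9 genes differed in response. With the replicate number alone as a block, 9 genes differed between lines in monoculture and 6 in coculture. These blocks lost no call. Of 32 monoculture libraries, 24 correlated best with their own number, a hint of pairing from the data that the labels do not give. The first numbers in the titles were also split into those up to 43 and those from 44 on, a split that the titles do not mark. With this split as a term, 80 pairs rose. Genes that differed then numbered 9 in monoculture, 5 in coculture and 9 in response. Low counts limit most Hox values: 18 of 38 genes had fewer than 10 counts.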
